A study of Mus musculus with 2 samples.

Results

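Cells that release GABA, the main inhibitory transmitter of the forebrain, are identified by a small set of genes, and 8 of them were followed here across the 2 arrays of the series. They are Gad1 and Gad2 (GABA synthesis), Dlx1, Dlx2, Dlx5, Dlx6 and Lhx6 (transcription factors of the lineage) and Pvalb (the calcium buffer parvalbumin). The members were taken as the array's non-control probes carrying 1 of these gene names, which gave 15 probes of the 56603 kept. Of the 15 probes, 12 were measured, meaning well above background on both arrays, and each of the 8 genes had at least 1 of them, among 24112 genes measured in all. The genes were chosen with their differences between these arrays already known, so all values below are a description.

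The arrays compared brain RNA of GPHR F/F;Nes mice with that of GPHR F/F littermate controls, both C57BL/6J at postnatal day 10, with 1 array per genotype. GPHR, the Golgi pH regulator encoded by Gpr89, is an anion channel that sets the acidity of the Golgi. Both genotypes carry the F/F allele, so the control differs by the absence of Nes and not by a wild-type allele. The labels spell out neither F/F nor Nes and name no promoter. As background, F/F usually denotes a pair of loxP-flanked alleles, and Nes is the symbol of nestin, whose promoter is often used to drive Cre recombinase in neural precursors. The labels give neither the number of animals behind each RNA nor their sex.

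As background on the genes themselves, Gad1 and Gad2 encode the enzymes that make GABA from glutamate. In the embryonic ventral forebrain, Dlx1 and Dlx2 act ahead of Dlx5 and Dlx6 to commit precursors to the GABAergic fate. Lhx6 then directs those of the medial ganglionic eminence towards interneurons that later make somatostatin or parvalbumin. Parvalbumin appears late, after birth, in fast-spiking interneurons, and it is also made by cerebellar Purkinje cells and by fast skeletal muscle.

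Signals are in scanner units after background subtraction. Differences are on the log2 scale, positive where GPHR F/F;Nes was higher, and were taken after each array was set to its own 75th percentile (173 units in GPHR F/F;Nes and 260 units, 259.5 before rounding, in GPHR F/F). A raw signal can therefore be lower in GPHR F/F;Nes while its difference lies near 0. The value after each ± comes from the scanner software's error for each probe, which covers neither animals nor labelling. For a gene with several measured probes it is the root of the summed squared probe errors divided by their number. It then leaves out any disagreement between the probes. With n = 1 per genotype nothing could be set against replicate spread, so the values carry no test. In whole brain, fewer cells of a type and less RNA per cell cannot be told apart. The differences of all genes had a median of 0.07 and an SD of 0.57. The sample checks were Gpr89 at 20.04 and 43.3 units (-0.53 ± 0.22), Xist at 234 and 1.36 units and the Y-linked Eif2s3y, on its brighter probe, at 1.93 and 710.4 units, GPHR F/F;Nes given first. Xist was well above background on the GPHR F/F;Nes array alone and Eif2s3y on the GPHR F/F array alone, the pattern of female and male RNA respectively. Genotype and sex therefore cannot be told apart here.

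The 8 genes split into a group slightly lower in GPHR F/F;Nes and a pair higher there. Gad1, Gad2, Dlx1, Dlx2 and Dlx5 had differences between -0.51 and -0.19, Dlx6 stood at 0.11, and Lhx6 (1.32) and Pvalb (1.37) were more than 2-fold higher. None of the 8 was 2-fold lower. Of all 24112 genes, 7.93% passed 2-fold upwards and 1.37% downwards, shares beside which the 2 of 8 and 0 of 8 stand without a reading, since the genes were picked on this contrast. Below 0 lay 5 of the 8, against 43.1% of all genes. By probe, 2 of the 12 measured were 2-fold higher (7.11% of all probes), none was 2-fold lower (1.45%), and 7 lay below 0 (46.1%). The median of the 8 was -0.20.

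**Figure D1:**
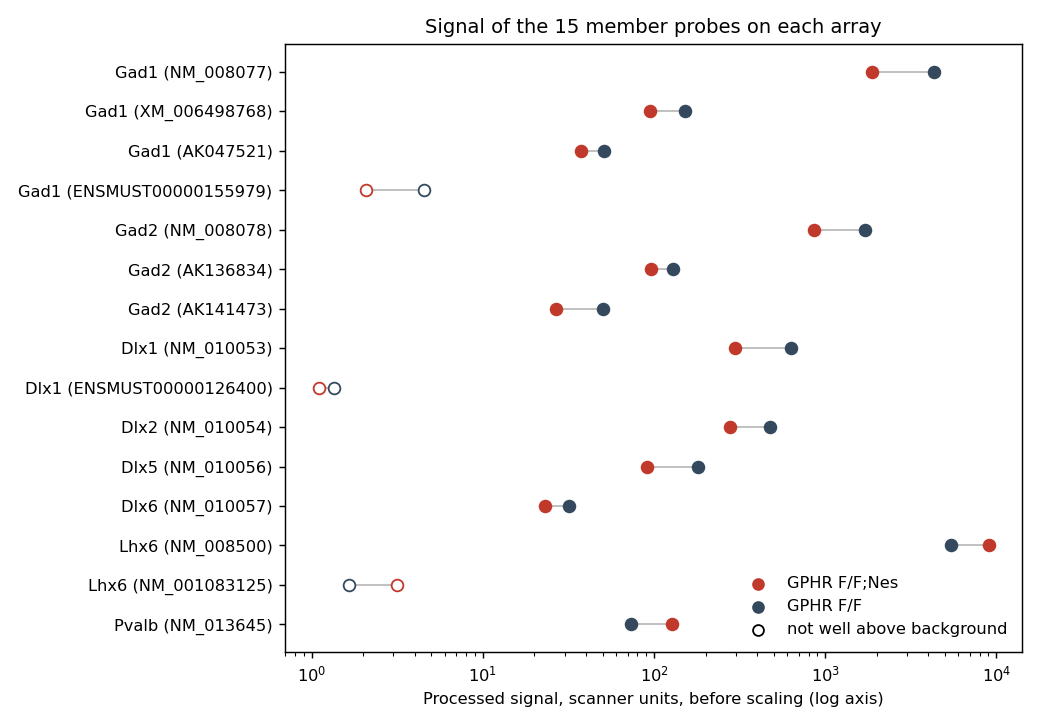
Processed signal of each of the 15 member probes on the GPHR F/F;Nes array (red) and the GPHR F/F array (dark blue), in scanner units before scaling, on a log axis; open circles were not well above background. Lhx6 (NM_008500) and Pvalb are the only measured probes with more raw signal in GPHR F/F;Nes.

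The GABA-synthesizing enzymes were lower in GPHR F/F;Nes on the probes designed to their curated mRNAs, while their other measured probes ranged from -0.33 to 0.15. The Gad1 probe for NM_008077 (mm9 chr2:70439699-70439758, plus strand) read 1884 units in GPHR F/F;Nes and 4333 units in GPHR F/F. Its normalized difference was -0.62 ± 0.20, a 1.54-fold lower level. The probe for XM_006498768 read 94.7 and 151.4 units and differed by -0.10 ± 0.21. The probe for AK047521 read 37.2 and 51.0 units and differed by 0.13 ± 0.21. The probes of Gad1 thus disagreed, with an SD of 0.38 between their differences, and their mean was -0.20. They also differ in brightness: of 20 bins of signal level, theirs had medians over all probes of -0.13, 0.03 and 0.16, in the same order. The part of signal level in their spread was not tested. The last Gad1 probe, for the Ensembl transcript ENSMUST00000155979, was not well above background on either array (2.08 and 4.51 units).

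Gad2, whose product makes GABA mainly at synapses, had a like pattern. Its probe for NM_008078 (chr2:22549095-22549154, plus strand) read 864 units in GPHR F/F;Nes and 1716 units in GPHR F/F, a difference of -0.41 ± 0.20. The probe for AK141473 read 26.7 and 50.1 units (-0.33 ± 0.22), and the probe for AK136834 read 96.0 and 129.3 units (0.15 ± 0.21). Their mean was -0.19 with an SD of 0.30, and their bins of signal level had medians of -0.11, 0.16 and 0.03, in the same order. For both enzymes the probe of the curated mRNA was the most negative of those measured. Probes of other transcript models lie elsewhere in the 2 loci on mm9, and which exons or introns they cover was not analysed here.

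Among the Dlx factors, Dlx1, Dlx2 and Dlx5 lay below 0 and Dlx6 did not. Dlx1 read 295 units in GPHR F/F;Nes and 629 units in GPHR F/F on its probe for NM_010053 (chr2:71371499-71371558, plus strand), with a difference of -0.51 ± 0.20. Its genomic neighbour Dlx2 read 277 and 478 units (chr2:71381612-71381671, minus strand) and differed by -0.21 ± 0.20, as much as the scanner error. Dlx5 read 90.5 and 181 units (chr6:6828063-6828122, minus strand), a difference of -0.42 ± 0.21. Dlx6, the neighbour of Dlx5, read 23.04 and 31.8 units and differed by 0.11 ± 0.23, less than the scanner error. The sign of Dlx6 was positive in 9 of 14 alternative settings and negative in the other 5. Those 5 were median centring (-0.16), spike-in scaling (-0.84), quantile normalization (-0.15), loess (-0.10) and normexp (-0.05). Dlx1, Dlx2, Dlx5, Gad1 and Gad2 were below 0 in all 14. Settings that only filter or combine probes gave Dlx2, Dlx5 and Dlx6, with 1 probe each, the same value by construction. Such settings therefore do not bear on their signs. Among dim probes the arrays as a whole leaned upwards: the bin that held Dlx6, the fifth of 20 from the dimmest, had a median difference of 0.22. The bin of Dlx1 had a median of -0.10 and that of Dlx5 one of 0.03.

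The Dlx probes share little sequence, with no run of more than 8 bases in common between any pair of the 4 measured. The Dlx6 probe is shown because it is the only one of the 4 measured Dlx member probes with a positive difference (mm9 chr6:6815092-6815151, plus strand, 5′ to 3′):
Dlx6 probe: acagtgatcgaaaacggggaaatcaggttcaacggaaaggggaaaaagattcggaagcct
Dlx6 lies within the span of the noncoding RNA Dlx6os1 (Evf2) on the RefSeq map, an RNA of the opposite strand known to regulate Dlx5 and Dlx6 in the mouse forebrain. All 3 probes of Dlx6os1 were lower in GPHR F/F;Nes, at 151.2 against 329.4 units (-0.54 ± 0.20), 21.3 against 48.2 units (-0.59 ± 0.22) and 272 against 526 units (-0.37 ± 0.20). The antisense RNA of Dlx1, Dlx1as, read 14.9 and 24.3 units, a difference of -0.13 ± 0.24. Dlx4os was not well above background on either array. Dlx6os1 therefore stood near Dlx5 (-0.42) rather than near Dlx6 in the size of its difference, though the difference between Dlx6 and Dlx5 had no replicate to test it.

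The other Dlx1 probe, for the Ensembl transcript ENSMUST00000126400, had no usable signal (1.097 units in GPHR F/F;Nes and 1.34 units in GPHR F/F). Its sequence was found whole in the RefSeq promoter table of GRCm38.p6, ending 31 bases before an annotated start of Dlx1. The 250 bases before that start (GRCm38.p6 chr2:71529195-71529444, plus strand) are printed with the probe, chr2:71529354-71529413, in capitals, to show that it sits upstream of this start:
Dlx1 upstream: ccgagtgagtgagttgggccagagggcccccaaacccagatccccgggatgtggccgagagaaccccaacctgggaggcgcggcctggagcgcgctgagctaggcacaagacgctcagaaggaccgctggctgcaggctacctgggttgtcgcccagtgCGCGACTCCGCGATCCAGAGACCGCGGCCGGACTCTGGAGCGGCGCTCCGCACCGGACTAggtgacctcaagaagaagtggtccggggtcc
No other member probe was found whole in the 9 promoter windows that the table gives for 6 of the 8 genes. The Dlx1 value thus rests on the probe for NM_010053 alone.

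Lhx6 was 2.50-fold higher in GPHR F/F;Nes on 1 probe, and that probe ends in a dinucleotide repeat. The probe for NM_008500 (mm9 chr2:35937644-35937703, minus strand) read 9055 units in GPHR F/F;Nes and 5416 units in GPHR F/F, a difference of 1.32 ± 0.20. The other Lhx6 probe, for NM_001083125 (chr2:35958379-35958438, minus strand), was not well above background on either array, at 3.16 and 1.65 units, so it gives no fold. The last 30 of the 60 bases of the measured probe, with the 29-base run of alternating C and A in capitals, and the whole of the other probe are shown, 5′ to 3′, because the Lhx6 value turns on which of them is read:
Lhx6 NM_008500: aACACACACACACACACACACACACACACA
Lhx6 NM_001083125: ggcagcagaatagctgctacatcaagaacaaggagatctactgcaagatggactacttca
No other member probe held a CA run longer than 5 bases.

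Across the array, probes with such a run differed in the same direction whatever gene they were designed for. Of 32 measured probes with a CA run of at least 20 bases, Lhx6 included, 27 were at least 2-fold higher in GPHR F/F;Nes (84.4%, against the 7.11% of all 36717 measured probes). All 32 lay above 0, from 0.84 to 1.77, with a median of 1.20. Probes of other genes set both ends of that range, so the Lhx6 value lay inside the range of the rest. With the minimum run set at 12 bases, 57 of 65 probes were 2-fold higher, with a median of 1.36. Probes with the complementary repeat, a GT run of at least 20 bases, went the other way: all 48 lay below 0, from -0.46 to -0.12, with a median of -0.28. Runs of alternating G and A of at least 12 bases went with CA runs in direction, with 28 of 33 probes 2-fold higher and a median of 1.63.

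Within genes, the repeat probe and the other probes parted. A CA-run probe and at least 1 measured probe without a run were held by 17 genes, and in all 17 the CA-run probe had the higher difference. The median over the 17 was 1.12 for the CA-run probes and 0.03 for the others. Snap25, a synaptic protein of all neurons that was singled out after its values were seen, shows the size. Its CA-run probe read 13144 units in GPHR F/F;Nes and 10747 units in GPHR F/F, a difference of 0.87, whereas its other probes differed by -0.84 and -0.45. Without CA-run probes, Lhx6 had no measured probe left and 1 of the 7 remaining members was 2-fold higher. The part of the repeat in the Lhx6 value was not tested.

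**Figure D2:**
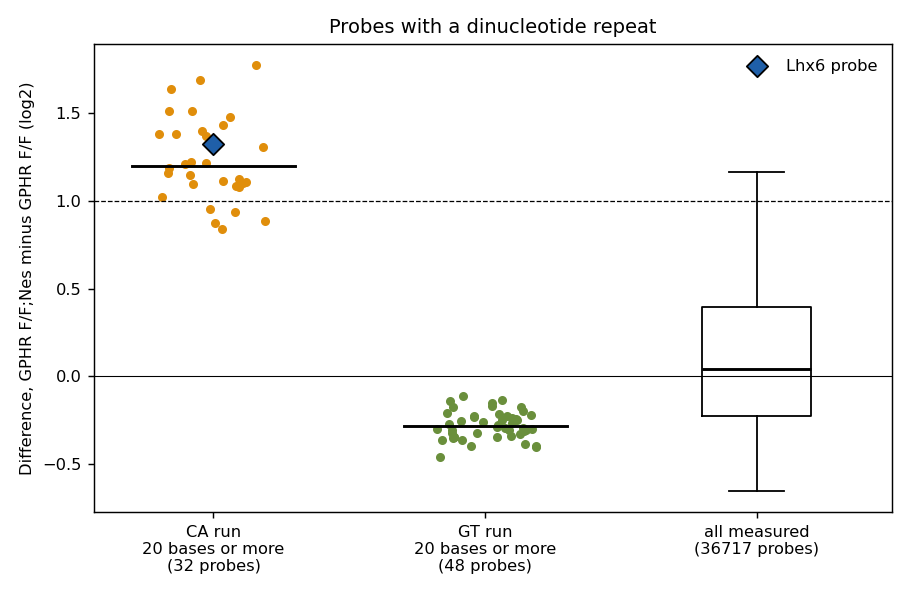
Difference between the arrays (log2, positive where GPHR F/F;Nes is higher) for the 32 probes with a CA run of 20 bases or more, the 48 probes with a GT run of that length, and all 36717 measured probes (box: quartiles and median; whiskers: 5th and 95th percentiles). Bars mark medians of 1.20 and -0.28, the dashed line marks 2-fold, and the Lhx6 probe (diamond, 1.32) lies among the CA-run probes.

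**Figure D3:**
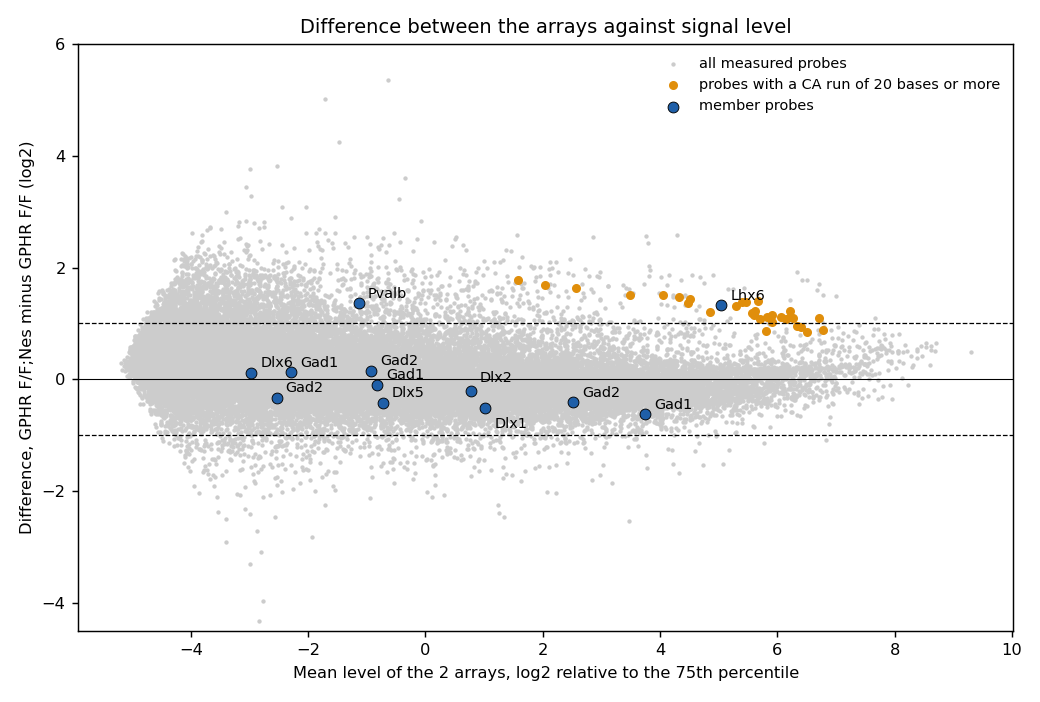
Difference (log2, positive where GPHR F/F;Nes is higher) against the mean level of the 2 arrays for all measured probes (grey), probes with a CA run of 20 bases or more (orange) and the 12 measured member probes (blue, labelled by gene); dashed lines mark 2-fold. Pvalb (1.37) and Lhx6 (1.32) lie above the upper line and the other 10 between the lines.

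Pvalb was 2.58-fold higher in GPHR F/F;Nes, also on 1 probe. That probe, for NM_013645 (mm9 chr15:78021951-78022010, minus strand), read 127 units in GPHR F/F;Nes and 73.6 units in GPHR F/F, a difference of 1.37 ± 0.21. It holds no CA run longer than 2 bases. Its bin of signal level had a median difference of 0.03, and 4.85% of the probes in that bin were at least 2-fold higher. The difference was 0.81 after normexp background correction and 0.41 after scaling to spike-in RNAs, both under 2-fold. The same spike-in scaling put Lhx6 at 0.37.

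Other genes of fast-spiking cells were mostly lower in GPHR F/F;Nes. Of 10 such genes, none was 2-fold higher, 7 lay below 0 and 1 of these was past 2-fold, with a median of -0.52. Kcna1, a potassium channel of axons, was 2.21-fold lower (-1.15 ± 0.20). Hapln1 (-0.99 ± 0.14) and Acan (-0.78 ± 0.22), which build the perineuronal net, and Lgi2 (-0.67 ± 0.12) followed. Kcnc1, the channel that allows fast firing, read 105.1 units in GPHR F/F;Nes and 221.1 units in GPHR F/F as a geometric mean over its 3 probes. Its difference was -0.49 ± 0.12, with an SD of 0.33 between the probes.

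Genes of the other tissues that make parvalbumin were read beside it. Among 8 Purkinje cell genes, 7 lay below 0 (median -0.60), 2 of them past 2-fold. The Purkinje genes with the greatest differences were Gng13 (-1.30 ± 0.20), Car8 (-1.21 ± 0.17), Slc1a6 (-0.85 ± 0.20) and Calb1 (-0.78 ± 0.12), whereas the marker Pcp2 stood at -0.08 ± 0.21. Of 11 skeletal muscle genes 9 were measured, of which 2 were 2-fold higher, Tnnt3 (1.15 ± 0.18) and Acta1 (1.09 ± 0.21), and 7 lay above 0. Myh2 (-0.37 ± 0.24) and Myh4 (0.37 ± 0.23) of the muscle myosins came next, and the muscle creatine kinase Ckm was not well above background on either array. Myoglobin, Mb, was well above it on the GPHR F/F array alone (3.79 units in GPHR F/F;Nes and 8.59 units in GPHR F/F, at least 1.13-fold higher in GPHR F/F). The summed signal of the measured muscle genes was 1.17 times the array's 75th percentile in GPHR F/F;Nes and 0.774 times in GPHR F/F. The muscle median of 0.30 lay below 0 in 4 of 7 scalings. Several muscle genes were dimmer than Dlx6, such as Myh4 (9.52 and 11.0 units) and Mylpf (9.78 and 11.7 units). Over all probes, the 5 dimmest of the 20 bins of signal level had medians from 0.22 to 0.39. The part of muscle RNA in the Pvalb value was not tested.

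The markers of other interneuron subtypes were mostly lower in GPHR F/F;Nes. Of 15 measured genes 13 lay below 0, with a median of -0.53, and those past 2-fold were 2 lower ones and no higher one. Somatostatin (Sst), the peptide of the other class of interneurons that depends on Lhx6, read 11512 units in GPHR F/F;Nes and 27253 units in GPHR F/F, a difference of -0.66 ± 0.20. The 2 genes past 2-fold were Crhbp, a binding protein for corticotropin-releasing hormone found in many somatostatin cells (18.9 and 80.7 units, -1.51 ± 0.23), and the peptide cortistatin, Cort (146.7 and 518.9 units, -1.24 ± 0.20). Chodl, a marker of long-range somatostatin cells, was just short of 2-fold at -0.998 ± 0.21. Lamp5, of neurogliaform cells, was the highest of the list (29.6 and 24.2 units, 0.87 ± 0.23). It rests on 1 probe, designed to an Ensembl transcript and as dim as that of Dlx6. Lhx6, as read by its repeat probe, thus had the opposite sign to Sst, Crhbp, Cort and Chodl.

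GABA transport and breakdown genes included no 2-fold difference in either direction, and 5 of 6 lay below 0 (median -0.10). The vesicular GABA transporter Slc32a1, which loads GABA into synaptic vesicles in all GABAergic neurons, read 5243 units in GPHR F/F;Nes and 13494 units in GPHR F/F, a difference of -0.78 ± 0.20. The glial GABA transporter Slc6a11 stood at -0.68 ± 0.20, the glutamine transporter Slc38a1 at 0.29 ± 0.10 and the GABA transaminase Abat at -0.12 ± 0.13. Slc32a1 and the curated-mRNA probes of Gad1 and Gad2 thus lay at -0.78, -0.62 and -0.41. The means over all measured probes of Gad1 and Gad2 were -0.20 and -0.19, and each gene had a probe above 0 (0.13 and 0.15).

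Other transcription factors of the forebrain GABAergic lineage differed in both directions. Of 21 genes 20 were measured, none differed 2-fold, and 10 lay above and 10 below 0 (median -0.13). Lhx8, which directs forebrain cholinergic neurons, had a mean of -0.95, but its probes stood at -1.91 and 0.02. Sp8 (-0.84 ± 0.20) and Npas1 (-0.64 ± 0.21) were lower. Dlx3, a family member best known from skin and bone, stood at 0.43 ± 0.20, and Dlx4 was not well above background on either array.

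Among 8 genes of interneuron migration and wiring, 1 was 2-fold higher and 5 lay below 0 (median -0.09). That gene was Cxcr4, the chemokine receptor of migrating interneurons and of leukocytes (65.6 and 47.1 units, 1.06 ± 0.21). The companion receptor Ackr3 stood at 0.53 ± 0.20, Elfn1 at -0.59 ± 0.20 and the neuregulin receptor Erbb4 at -0.12 ± 0.20. Cntnap4 averaged 0.91 over probes at 2.72, 0.08 and -0.06, the first of them designed to an Ensembl transcript.

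Factors of GABAergic neurons outside the forebrain were on the higher side in the main scaling, with a median of 0.83 over the 6 measured of 12. That median became 0.24 after normexp correction and -0.12 after scaling to spike-in RNAs. Several of the 6 were dim, such as Helt (28.3 and 26.7 units), near Dlx6 in signal. In the bin of Dlx6, 12.7% of probes were at least 2-fold higher. Gata3 was 4.01-fold higher (60.5 and 22.6 units, 2.003 ± 0.22) and Lhx1 2.25-fold higher (1.17 ± 0.14). Lhx5 (0.995 ± 0.21) and Helt (0.66 ± 0.22) followed, and Tal1 stood at -0.45 ± 0.21. Only the GPHR F/F;Nes array had Gata2, Tfap2a and Tfap2b well above background, with levels at least 1.92-fold, 2.39-fold and 1.68-fold higher. These signals were dim. Gata2 read 8.06 and 3.31 units, where the lowest signal that cleared background was 5.06 units in GPHR F/F;Nes and 6.28 units in GPHR F/F. Only the GPHR F/F array had Sox14 well above background, at a level at least 3.38-fold higher in GPHR F/F. Each bound divides the brighter level by what the dimmer array read for that probe, raised where needed to its lowest level that cleared background. All bounds of this kind were taken in the main scaling alone, and spike-in scaling shifts every log2 difference by -0.95.

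**Figure D4:**
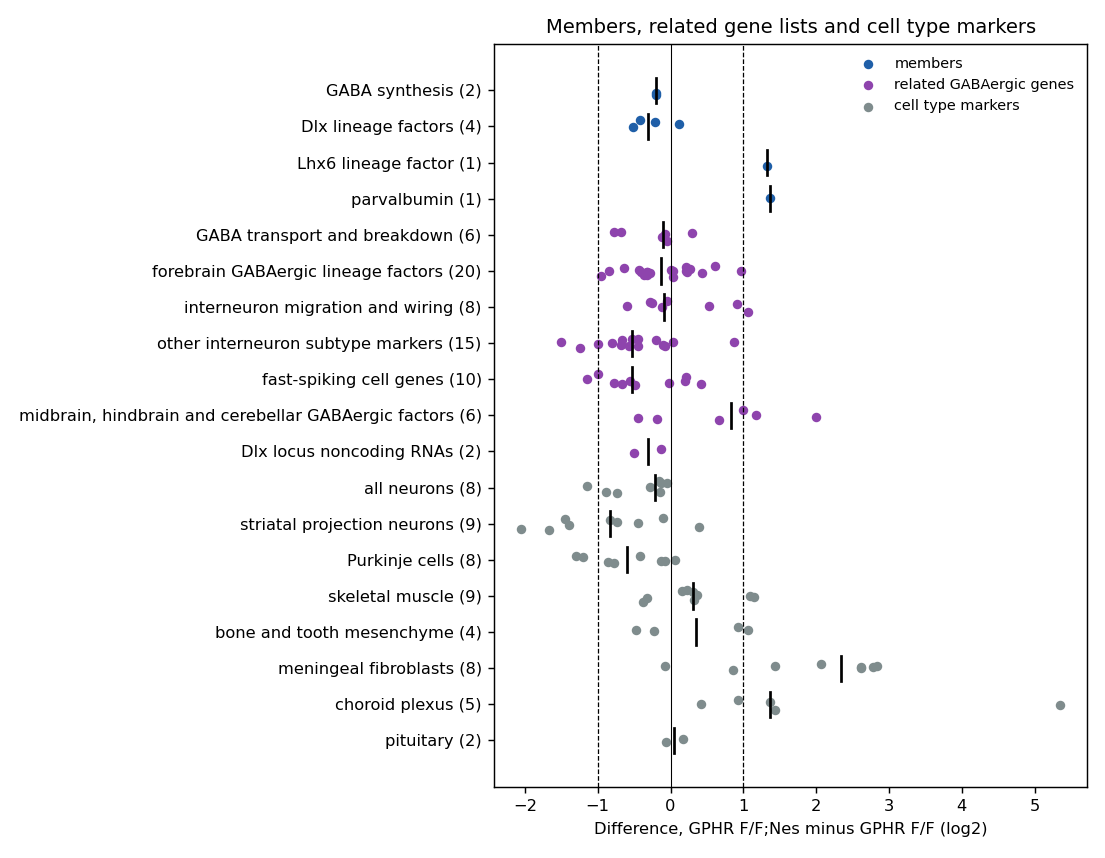
Difference (log2, positive where GPHR F/F;Nes is higher) of each gene measured on both arrays in the member groups (blue), related GABAergic lists (purple) and cell type marker lists (grey), with the number of genes in brackets; black bars mark list medians and dashed lines 2-fold. Subtype markers and fast-spiking genes have medians of -0.53 and -0.52, while Lhx6, on its repeat probe, and Pvalb, with 1 measured probe each, lie above 1.

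Markers of the cell types around these neurons differed as well. General neuronal genes were all below 0 (8 of 8, median -0.22), with Nefl at -1.14, Rbfox3 at -0.88, Syp at -0.74 and Tubb3 at -0.28. Snap25 stood at -0.14 with its CA-run probe and at -0.64 without it, which put the median at -0.46. Of 9 striatal projection neuron genes 4 were 2-fold lower, among them Penk (-2.05), Adora2a (-1.67) and Tac1 (-1.39), and Ppp1r1b stood at -0.83 (median -0.83). These GABAergic cells share Gad1, Gad2 and the Dlx genes with interneurons, and whole-brain RNA does not separate the sources. Of 8 measured meningeal genes 6 were 2-fold higher (median 2.34), led by Slc6a13 (2.84), Igf2 (2.78), Col3a1 (2.62) and Col1a2 (2.61), with Col1a1 at 1.44. Their summed signal was 11.05 times the 75th percentile in GPHR F/F;Nes and 7.50 times in GPHR F/F, of which the matrix gene Dcn (-0.07) gave 6.18 and 6.48. Without Dcn the sums were 4.87 and 1.02 times. The meningeal median was 0.90 after normexp correction. Of 5 measured choroid plexus genes 3 were 2-fold higher, Ttr (5.35), Folr1 (1.43) and Otx2 (1.36), and Aqp1 stood at 0.93. Their summed signal was 5.86 times the 75th percentile in GPHR F/F;Nes and 0.803 times in GPHR F/F. Most of the GPHR F/F;Nes sum came from Ttr alone, which read 716 units there and 26.2 units in GPHR F/F. The sums without Ttr were not calculated. The choroid plexus median was 1.36, against 0.60 after normexp correction and 0.41 after scaling to spike-in RNAs.

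Bone and tooth mesenchyme, where Dlx and Lhx6 genes also act, had 4 of 11 markers measured: Spp1 (1.07), which microglia make too, Col2a1 (0.93), Sp7 (-0.47) and Alpl (-0.23). Bglap and Bglap2, of osteoblasts, passed background only on the GPHR F/F;Nes array (at least 1.606-fold and 1.97-fold higher there in the main scaling). Ibsp and Col10a1 passed it only on the GPHR F/F array (at least 1.02-fold and 1.605-fold higher in GPHR F/F), and Dmp1, Amelx and Ambn on neither. The summed signal of the 4 was 1.82 times the 75th percentile in GPHR F/F;Nes and 1.88 times in GPHR F/F. Of 7 pituitary markers only Pomc (0.17) and Lhb (-0.07) were measured. The part of these tissues in the member values was not tested.

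**Figure D5:**
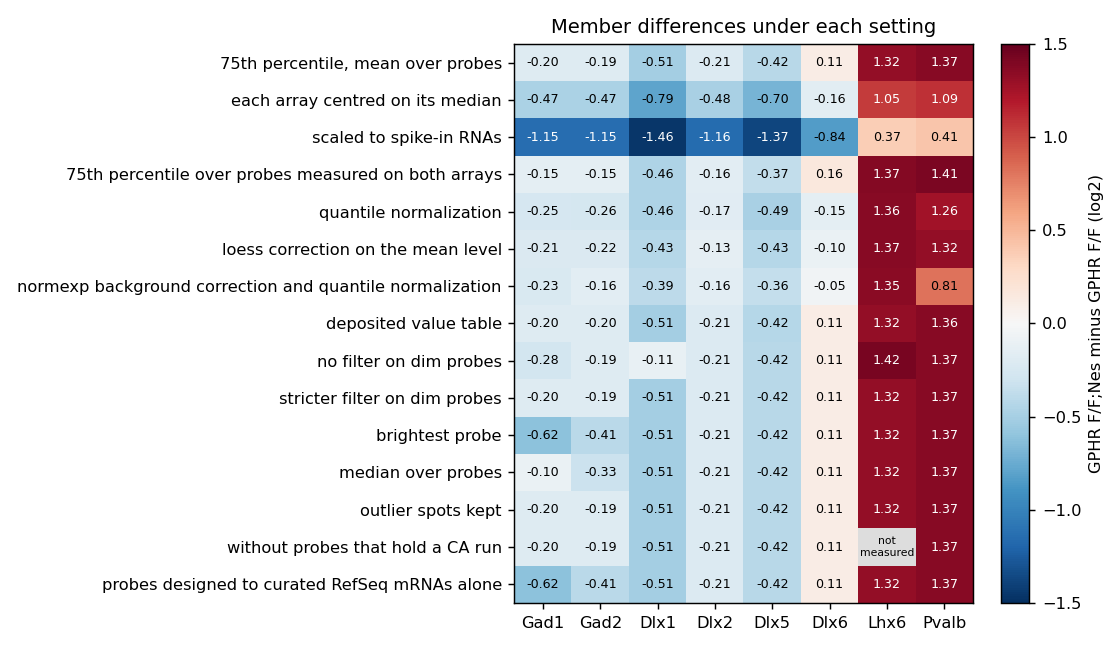
Difference of each member (log2, positive where GPHR F/F;Nes is higher) under the setting used in the text (top row) and 14 alternatives, given in each cell and by colour. Lhx6 and Pvalb are above 0 wherever measured, 5 members are below 0 throughout, and Dlx6 changes sign.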

How the data were processed

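RNA of 2 brain samples was isolated in TRIzol and labelled by Agilent's low-input 1-colour method, per the labels' protocols. The dye was Cy3, per the file headers, and scans were read with Agilent Feature Extraction 11.5.1.1, per the submitters' processing notes. The deposited intensity of each spot is background-subtracted and spatially detrended, per the file headers, with flags (other values, 0 or 1) for spots well above background, saturated (none) or outlying. Per the file headers, mm9 is the build of the probe positions. The deposited value table is on the log2 scale. It equalled the log2 processed intensity plus 1 constant per array within 0.001 for 99.9% of probes, with column medians of -2.92 for GPHR F/F;Nes and of -3.19 for GPHR F/F. No source used here says how the constants were set.

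Each array had 62976 spots. Outlier spots were left out (96 non-control spots), spots of a probe averaged in log2, and the 75th percentile over 56603 probes subtracted. A gene's value is the mean over its measured probes. Names were updated through RefSeq accessions (32993 probes matched). The share of probes well above background was 69.2% in GPHR F/F;Nes and 67.0% in GPHR F/F, and the number of arrays, 1 per group, limits the precision. No test between groups was possible. All members and all lists were chosen with earlier results of these data known. Named genes are all members, and of each list the 4 largest absolute differences and its first gene, except a few genes whose values are not reported here. The calculation was tested on simulated data. Alternatives were other scalings, quantile, loess (span 0.3) and normexp (offset 50) normalization in limma 3.58.1 with R 4.3.3, the deposited table, other filters, other ways to combine probes, and thresholds of 1.5-fold and 3-fold. Leaving out CA-run probes, using curated mRNA probes alone and leaving a list's brightest gene out of its summed signal were added after seeing the data. Other steps ran in Python 3.11.15 with pandas 2.3.3 and numpy 2.4.6. Sequences are from the array files and, for the promoter, from RefSeq (GRCm38.p6).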

Additional observations from a re-analysis of the deposited data

How the results depend on the processing

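Of the 8 members, 7 kept their direction in every alternative that measured them (13 for Lhx6, 14 for the others), and Dlx6 did in 9 of 14. For a member with 1 measured probe, alternatives that only combine probes differently return the main value by construction. The deposited table gave nearly the main values (members' median -0.197 against -0.195). Median centring and spike-in scaling lower every difference, so neither could reverse a member below 0. Every alternative that measured Lhx6 kept its repeat probe, so the count for Lhx6 does not bear on the repeat. The reversals of Dlx6 all came from other scalings or normalizations. Centring on array medians shifted every difference by -0.28 and spike-in scaling by -0.95, which put the median of all genes at -0.20 and -0.88, and that of the members at -0.47 and -1.15. Relative to the median of all genes, the members' median lay between -0.42 and -0.15 in 14 alternatives. Median centring, spike-in scaling and the 75th percentile over measured probes gave the main value of -0.27. They shift each array by a constant, so this value could not move under them. The count of members at least 2-fold higher was 1 after normexp correction, 1 without CA-run probes, 0 at a 3-fold threshold and 0 after spike-in scaling, which put 5 members at least 2-fold lower. All genes at least 2-fold higher numbered 1912 as reported, 1081 with median centring, 186 with spike-ins, 1240 with quantile normalization, 333 with normexp, 5549 without a filter, 884 with the stricter filter, 906 on curated mRNA probes, 4370 at 1.5-fold and 549 at 3-fold. Those lower numbered 330, against 818 with median centring, 9233 with spike-ins, 572 with quantile normalization, 87 with normexp, 788 without a filter, 1382 at 1.5-fold and 60 at 3-fold. The higher share of the genes past 2-fold was 85.3% as reported, 74.7% after loess, 68.4% after quantile normalization, 56.9% with median centring and 1.97% with spike-ins. The fewer calls at stricter thresholds and filters follow from their construction, and the cause of the other shifts was not tested. No paired analysis was possible because each genotype had 1 array, and no replicate could be left out. Signal over background limited 3 of the 15 member probes, which give no difference.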
